A study of Homo sapiens with 3 samples.

Results

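The genes described here are the protein-coding genes of human chromosome 19 named ZNF followed by digits only, 240 of the 1451 protein-coding genes of that chromosome and of 19974 on chromosomes 1 to 22 and X. They were chosen by symbol and position (GRCh38.p14, the RefSeq gene table), so no measured value entered the choice. UM-UC-3 (labelled UMUC3), an established line of human bladder carcinoma cells, had been grown in smoke-conditioned medium (10% for 3 days by the series design text) or exposed to air. Chromatin of each was immunoprecipitated with an antibody to histone H2A acetylated at lysine 130 and sequenced (ChIP-seq). There was 1 smoke library, 1 air library and 1 input of the same line, all 3 carrying the same treatment text. The input was not compared with the others here. Each immunoprecipitated library came as 1 list of peaks, 23975 for smoke and 27010 for air. The labels of both lists name the same further library as subtracted, without saying which sample it was. Read depth is unknown. Since a group is a single library, no p-value is given, and every interval below covers counting error only, not the spread between cultures.

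Most ZNF genes of chromosome 19 encode proteins with tandem C2H2 zinc fingers, which bind DNA, joined to a KRAB domain, which recruits the co-repressor TRIM28. TRIM28 brings in the histone methyltransferase SETDB1 and heterochromatin proteins, and many KRAB zinc finger proteins silence retrotransposons in this way. The genes arose by tandem duplication and stand in rows of related copies. Their own bodies, the exons that encode the fingers above all, are known for a heterochromatin mark, trimethylation of histone H3 at lysine 9. What acetylation of H2A at lysine 130 does at such genes is not stated in the sources used here.

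Smoke peaks lay over 50 of the 240 ZNF genes, a margin of 1 kb on each side included (20.8%, 95% Wilson interval 16.2 to 26.4). Among the 1211 other protein-coding genes of the same chromosome the share was 5.53%, and over all protein-coding genes it was 24.2%. Air peaks lay at 56 ZNF genes (23.3%, 18.4 to 29.1), against 5.78% and 25.9%. In both libraries the ZNF genes thus stood well above their chromosome and close to the background of the genome. A peak in either list was present at 90 ZNF genes (37.5%, background 10.1% on chromosome 19 and 35.5% overall), and 150 had none. Peaks of both lists were held by 16 genes (background 1.24% and 14.7%), of smoke alone by 34 (4.29% and 9.58%) and of air alone by 40 (4.54% and 11.2%).

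Gene length differed between these sets and bears on how many peaks a gene can hold. ZNF genes had a median length of 23.1 kb (2.47 to 488.0 kb), the other genes of the chromosome 12.8 kb. The other genes were therefore weighted to the length classes of the ZNF genes. With that weighting 7.31% of them held a smoke peak, which would be 17.6 of 240 genes where 50 were counted. For air it was 7.53%, or 18.1 genes where 56 were counted. Genes of all other chromosomes, weighted alike, gave 16.4% for smoke and 18.1% for air, inside the ZNF genes' interval for smoke and just below it for air. ZNF genes of the other chromosomes, 237 in number, gave 17.6% and 16.6% at these lengths.

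The share of ZNF genes was above that of neighbours of like length in every length class, with intervals that stood apart from 20 to 80 kb. Of 101 ZNF genes of 20 to 40 kb, 22 held a smoke peak (21.8%, 14.8 to 30.8), against 18 of 243 other genes (7.41%, 4.74 to 11.4). In air 29 of the 101 did (28.7%, 20.8 to 38.2), against 23 of 243 (9.47%, 6.39 to 13.8). From 40 to 80 kb, 16 of 33 ZNF genes held a smoke peak (48.5%, 32.5 to 64.8), against 16 of 117 others (13.7%, 8.60 to 21.1). The air counts there were 15 of 33 (45.5%, 29.8 to 62.0) and 13 of 117 (11.1%, 6.61 to 18.1). None of these pairs of intervals overlapped. Under 20 kb and from 80 kb upward the intervals overlapped in both libraries. From 10 to 20 kb the shares were 8.57% against 3.27% in smoke and 7.14% against 1.49% in air. From 80 kb upward, with only 8 ZNF genes, they were 62.5% against 36.4% and 75.0% against 38.6%. Short genes seldom held a peak: 1 of 28 ZNF genes under 10 kb did so in each list.

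**Figure D1:**
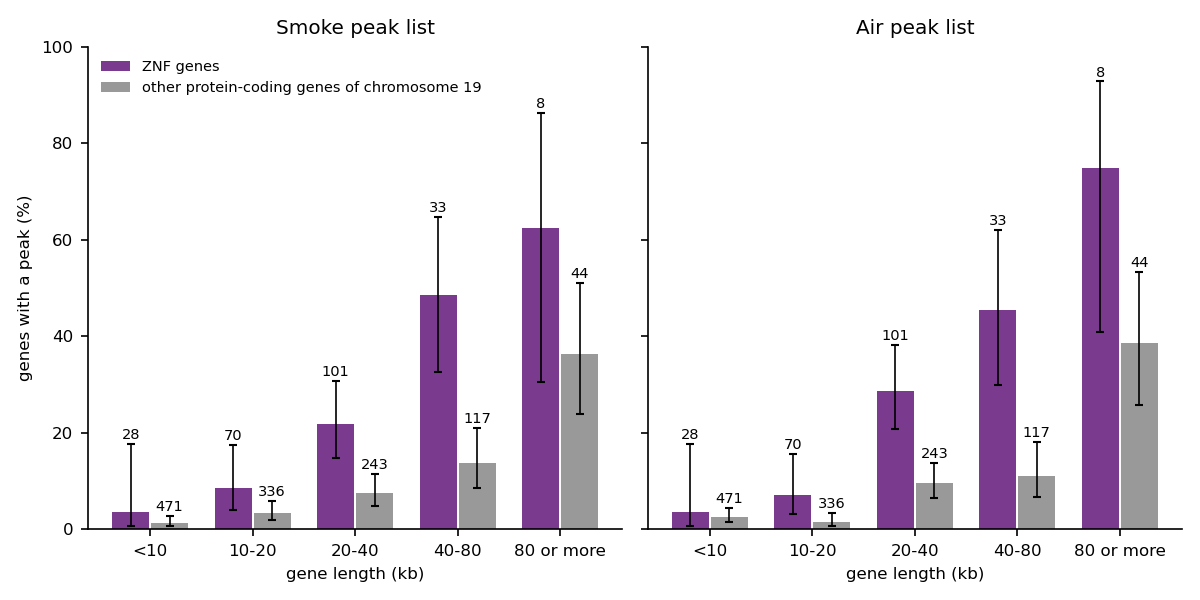
Share of genes with a peak in the span or its 1 kb margins (vertical axis, %) by gene length in kb, for ZNF genes and other protein-coding genes of chromosome 19, smoke left and air right. Bars are shares, lines 95% Wilson intervals, and the numbers above are genes; from 20 to 80 kb the ZNF bars stand clear of the grey ones, as 48.5% against 13.7% in smoke at 40 to 80 kb.

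The clusters were taken as runs of at least 5 ZNF genes whose neighbours lay at most 250 kb apart. There were 12, with 5 to 41 ZNF genes each, holding 222 of the 240 genes and covering 12.2 Mb, or 20.9% of the chromosome as spanned by its genes. They held 94 smoke peaks, 7.68 per Mb (exact 95% Poisson interval 6.21 to 9.40), and 105 air peaks, 8.58 per Mb (7.02 to 10.4). The rest of the chromosome held 3.82 smoke peaks per Mb (3.28 to 4.43) and 3.80 air peaks per Mb (3.26 to 4.40). Leaving its longest peak-free stretch of 3.16 Mb out of the rest raised these to 4.10 and 4.08. All other chromosomes together held 7.98 and 8.997 per Mb, values inside the intervals of the clusters, while chromosome 19 as a whole (4.63 and 4.80 per Mb) ranked 3 from the lowest of 23 chromosomes in each list. Protein-coding genes were about as frequent in the pooled clusters (23.9 per Mb) as in the rest (25.0 per Mb), but single clusters ran from 8.73 to 71.0 per Mb. The lowest value was that of the cluster from ZNF737 to ZNF91, which held the most peaks (39 smoke, 26 air). The highest was that of the short cluster from ZNF628 to ZNF580, which held none. The cluster from ZNF175 to ZNF331 (16 smoke, 23 air) had 27.4 per Mb. Whether gene density bears on peak density was not tested.

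The clusters differed from the rest of the chromosome most clearly inside ZNF gene spans. Inside ZNF gene spans of the clusters there were 8.77 smoke peaks per Mb (6.55 to 11.5) and 10.1 air peaks per Mb (7.73 to 13.0). Inside the other protein-coding genes outside the clusters there were 2.80 (2.16 to 3.56) and 2.42 (1.83 to 3.13). On other chromosomes the spans of protein-coding genes held 8.22 and 9.40 per Mb. Between ZNF genes of a cluster, other protein-coding genes there included, the densities were 6.66 (4.80 to 8.9997) and 7.13 (5.20 to 9.55). Outside protein-coding genes in the rest of the chromosome, the longest peak-free stretch left out, they were 5.35 (4.35 to 6.51) and 6.05 (4.98 to 7.27). The intervals overlapped in both lists, but the sets are unlike, since only the latter left out every protein-coding span. Of 71 other protein-coding genes that overlap a cluster, 2 held a smoke peak (2.82%, 0.776 to 9.70) and 10 an air peak (14.1%, 7.83 to 24.0). Those 2, ZNF585A and ZNF585B, have a letter in the symbol and are zinc finger genes left out by the naming rule, as are several of the 10. The 18 ZNF genes outside clusters held peaks at 5 genes in smoke and 5 in air (27.8%, 12.5 to 50.9 for each).

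**Figure D2:**
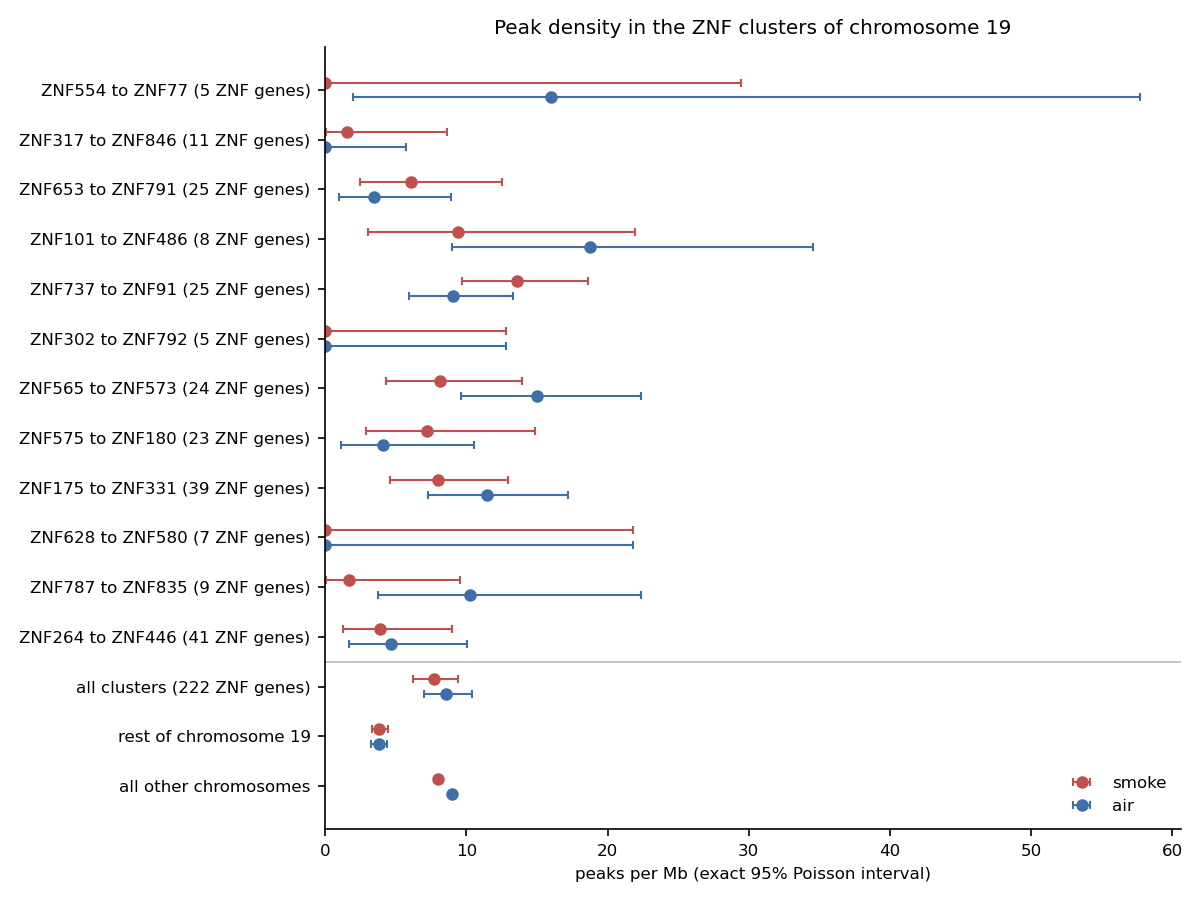
Peaks per Mb (horizontal axis) in the 12 clusters, named by their first and last ZNF gene, in all clusters, in the rest of chromosome 19 and on all other chromosomes, with exact 95% Poisson intervals, smoke in red and air in blue. The clusters together (7.68 and 8.58) lie above the rest of the chromosome (3.82 and 3.80), while single clusters range from 0 to 18.8.

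Peaks were unevenly spread over the clusters. The 4 with the most peaks were ZNF737 to ZNF91 (39 smoke and 26 air peaks), ZNF175 to ZNF331 (16 and 23), ZNF565 to ZNF573 (13 and 24) and ZNF101 to ZNF486 (5 and 10). The cluster nearest the end of the long arm, ZNF264 to ZNF446, had the most ZNF genes (41) but held only 5 and 6 peaks in 1.30 Mb. The clusters ZNF302 to ZNF792 (5 genes) and ZNF628 to ZNF580 (7 genes) held none in either list. Their short lengths of 0.288 and 0.169 Mb allow up to 12.8 and 21.8 peaks per Mb, so a low density was not detectable there. The small cluster ZNF554 to ZNF77 held 2 air peaks, ZNF317 to ZNF846 held 1 smoke peak, ZNF653 to ZNF791 and ZNF575 to ZNF180 each held 7 smoke and 4 air peaks, and ZNF787 to ZNF835 held 1 and 6.

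The balance of smoke and air peaks also differed from cluster to cluster. Over the genes of ZNF737 to ZNF91 (chromosome 19, 20530276 to 23395471) lay 22 smoke and 8 air peaks, a smoke share of 73.3% (55.6 to 85.8). Smoke peaks were present at 15 of its 25 genes (60.0%, 40.7 to 76.6) and air peaks at 6 (24.0%, 11.5 to 43.4), with 12 in smoke alone and 3 in air alone. Over ZNF175 to ZNF331 (51571283 to 53580269) the order was the opposite, with 7 smoke and 18 air peaks, a smoke share of 28.0% (14.3 to 47.6). There 7 of 39 genes held smoke peaks and 15 held air peaks. In ZNF565 to ZNF573 (36182060 to 37779586) 10 of 24 genes held smoke peaks and 16 air peaks, the most genes in both lists of any cluster (7), and the smoke share of peaks was 38.7% (23.7 to 56.2). Over all ZNF genes the share was 48.5% (40.3 to 56.9), and over all other chromosomes 47.0%. The intervals of ZNF737 to ZNF91 and of ZNF175 to ZNF331 leave out 48.5%, the latter by less than 1 percentage point. With all peaks of a cluster counted, those between its genes included, the smoke share was 60.0% (47.9 to 71.0) in ZNF737 to ZNF91 and 41.0% (27.1 to 56.6) in ZNF175 to ZNF331. Both of these intervals take in 48.5%. That reference itself includes both clusters, and the reading depends on it. The 47.0% of other chromosomes lies inside the 14.3 to 47.6 of ZNF175 to ZNF331. It lies just below the 47.9 to 71.0 of ZNF737 to ZNF91. These intervals were not adjusted for the number of clusters, and the clusters were picked out here after their values were seen.

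**Figure D3:**
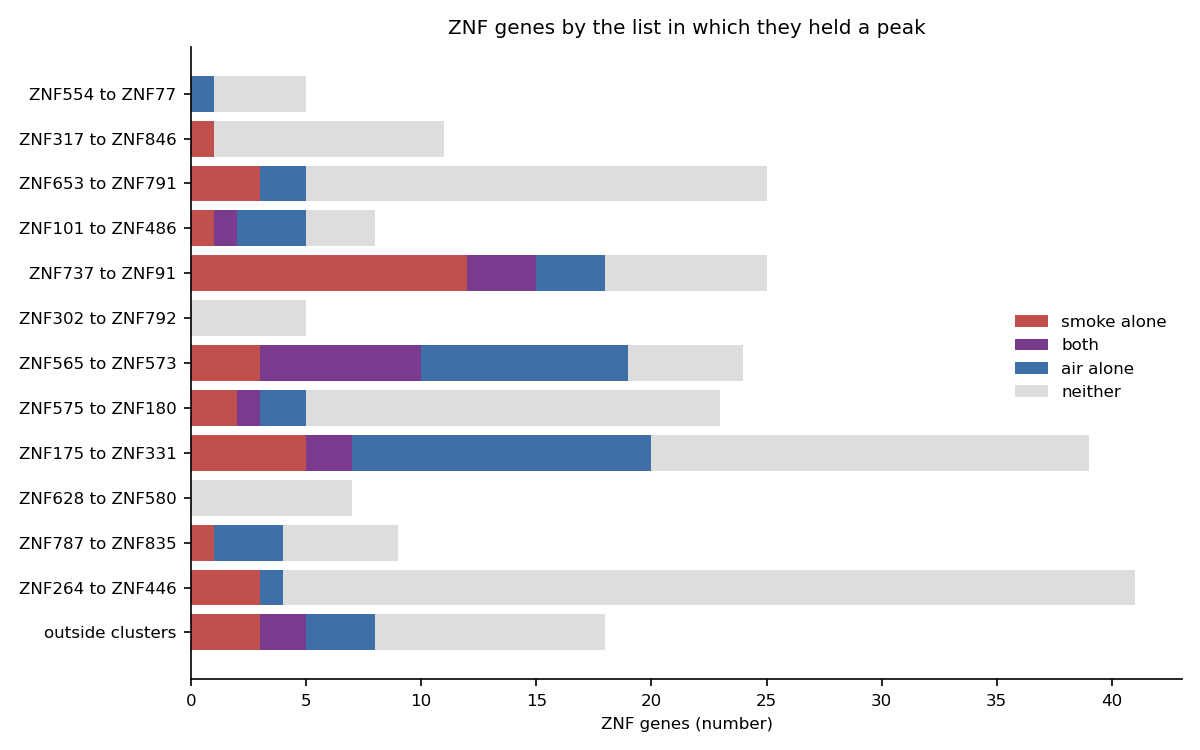
Number of ZNF genes (horizontal axis) in each cluster, and outside clusters, that held peaks of smoke alone, of both lists, of air alone or of neither. In ZNF737 to ZNF91 smoke alone took 12 genes and air alone 3, in ZNF175 to ZNF331 5 and 13.

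Within ZNF737 to ZNF91, which lies on the short arm near the centromere, smoke peaks often stood at genes with no air peak. ZNF99 held 4 smoke peaks and no air peak in 32.0 kb. The deposited fold of each, the authors' enrichment over background, was 3.22 for 2 of them and 3.76 for the other 2, near the smoke list's median of 3.76. ZNF626, ZNF66 and ZNF723 held 2 smoke peaks each and none of air, and ZNF85 1 of fold 4.84 (20948006 to 20948164). ZNF676 held 2 smoke peaks and 1 air peak. ZNF730 held 2 air peaks, of folds 5.22 and 4.64, and none of smoke. ZNF91, which represses SVA retrotransposons, is 90.5 kb long and was without a peak in either list. In the neighbouring cluster ZNF93, a repressor of LINE-1 elements, held 1 smoke peak (fold 4.30) and no air peak, and ZNF90 2 smoke peaks and 1 air peak. ZNF626, ZNF66, ZNF723 and ZNF93 were named after their values were seen.

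**Figure D4:**
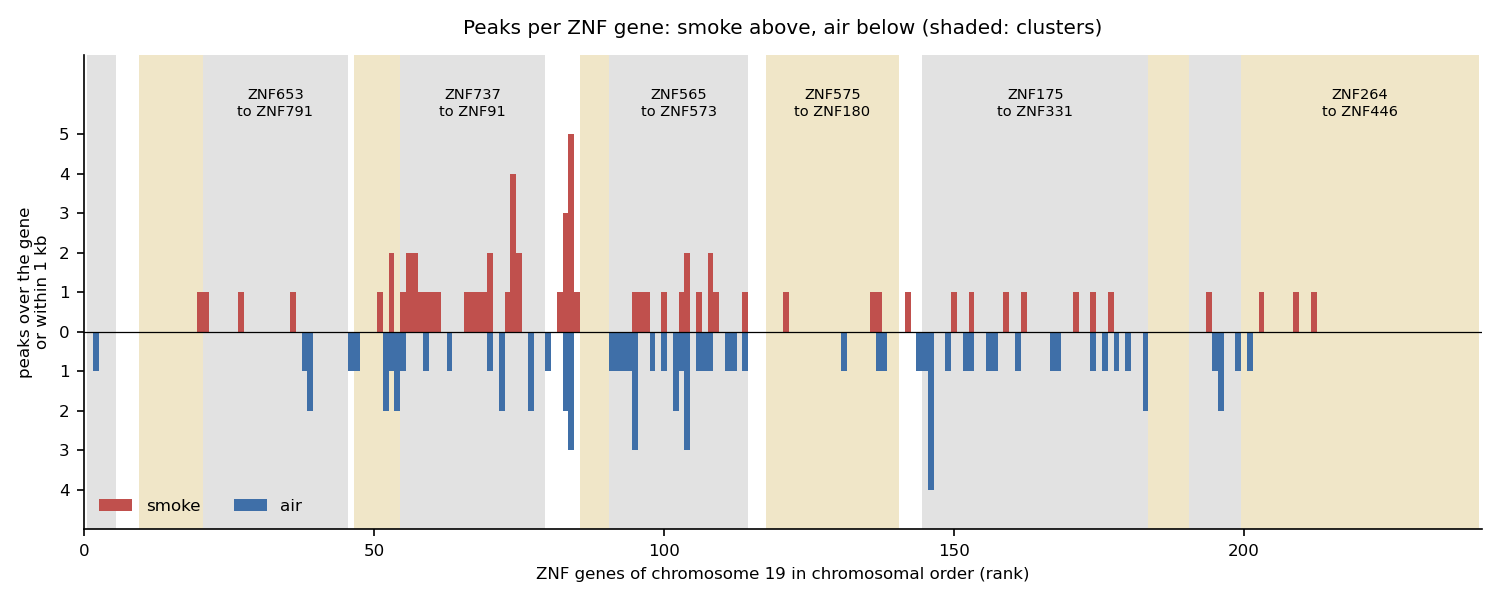
Peaks over each of the 240 ZNF genes, 1 kb margins included (vertical axis, smoke upward in red, air downward in blue), with the genes in chromosomal order; shading marks clusters, those of 20 genes or more named. Counted as distinct peaks, smoke outnumbers air in ZNF737 to ZNF91 (22 smoke, 8 air). Air outnumbers smoke in ZNF565 to ZNF573 (12 smoke, 19 air) and ZNF175 to ZNF331 (7 smoke, 18 air). The highest smoke bar is that of ZNF536 (5) and the longest air bar that of ZNF577 (4).

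Long ZNF genes held the most peaks per gene. ZNF536, the longest (488.0 kb), stands outside the clusters and encodes a repressor of neuronal differentiation with no KRAB domain. It held 5 smoke and 3 air peaks, the most of any ZNF gene. Its smoke folds were 3.76, 5.91, 4.84, 2.69 and 3.38, and its air folds 5.80, 4.06 and 7.49. The last of these, at 30405505 to 30405833 with a −log10 q of 5.79, was the strongest air peak over any ZNF gene. The q is the peak caller's false discovery rate, so a higher −log10 q marks a stronger peak. No smoke peak of ZNF536 overlapped an air peak, and the nearest pair lay 2775 bp apart. ZNF254 (96.5 kb) held 3 smoke peaks and 2 air peaks, an air peak at 24047323 to 24047550 reaching a fold of 6.99. ZNF420, a KRAB protein known to restrain p53 and the second longest of the genes at 122.5 kb, held 2 and 3, none above a fold of 4.27.

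Not every long ZNF gene held peaks of both lists. Of the 8 ZNF genes of 80 kb or more, ZNF69 (92.4 kb) had no peak, like ZNF91. ZNF577 (83.5 kb) held 4 air peaks and no smoke peak, with folds of 3.13, 2.25, 2.90 and 3.13, all under the air list's median of 3.93. ZNF331, an imprinted gene, held 2 air peaks and none of smoke in 77.0 kb. ZNF471 likewise held 2 air peaks alone, in 22.4 kb. Of all ZNF genes, 10 held 2 or more smoke peaks and 13 held 2 or more air peaks. ZNF69 was named after its values were seen.

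The strongest peaks of smoke alone lay at ZNF570, ZNF461, ZNF880, ZNF85 and ZNF543. At ZNF570 the peak lay 549 bp beyond the gene's far end (37489088 to 37489277), and reached a −log10 q of 4.02, the highest of any smoke peak over a ZNF gene, at a 6.45-fold enrichment. An air peak lay 2784 bp from it, outside the gene's 1 kb margin. The peaks within ZNF461 and ZNF880 were alike in strength (fold 5.37, −log10 q 2.65). The strongest of air alone lay at ZNF432, whose protein acts in DNA repair (fold 6.07, −log10 q 3.61), ZNF333 (5.60 and 3.10), ZNF730, ZNF829 (5.22 and 2.49 each) and ZNF146 (4.64 and 2.02). The last place was a tie broken by symbol: ZNF540, ZNF565, ZNF571 and ZNF665, also in air alone, had the same values. ZNF146 encodes a protein of zinc fingers only, and its peak lies also within ZNF565, whose span overlaps it. Altogether, 4 air peaks were counted over 2 ZNF genes each, so the air count of 74 per gene stands for 70 peaks. The 66 smoke peaks were each counted once.

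ZNF415, ZNF529 and ZNF569 held a smoke peak that overlapped an air peak, 3 of the 66 smoke peaks (4.55%, 1.56 to 12.5) and 3 of the 70 air peaks (4.29%, 1.47 to 11.9) over ZNF genes. Of all peaks, 1.58% in smoke and 1.41% in air overlapped the other list, and on chromosome 19 7 of 271 (2.58%, 1.26 to 5.23) and 7 of 281 (2.49%, 1.21 to 5.05). Few peaks were thus shared anywhere. The ZNF genes' intervals take in the chromosome's shares, which count the same 3 peaks of each list. Against all peaks, the smoke interval only just takes in 1.58%, and the air interval lies just above 1.41%. At ZNF415 the peaks (53128134 to 53128335 in smoke, 53127988 to 53128306 in air) overlapped by 173 bp, with summits 15 bp apart and folds of 4.30 and 3.13. At ZNF529 (36557043 to 36557606 and 36557165 to 36557853) the overlap was 442 bp, with summits 468 bp apart and folds of 3.82 and 3.96. At ZNF569, a KRAB protein reported to damp MAPK signalling, the overlap was 126 bp and the folds 3.76 and 4.06. The other 13 of the 16 genes with peaks in both lists held them at places that did not overlap. The median distance from a smoke peak over a ZNF gene to the nearest air peak was 30.3 kb, and from an air peak to the nearest smoke peak 47.4 kb. Within a list, no smoke peak over a ZNF gene had a neighbour within 2 kb, while 8 air peaks did, as pairs in ZNF486, ZNF529, ZNF829 and ZNF577. The share of such peaks in the whole lists is not given here, so these counts mark no trait of ZNF genes.

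Peaks at gene ends were the exception. Within 1 kb of either end lay smoke peaks at 5 ZNF genes (2.08%, 0.893 to 4.78) and air peaks at 10 (4.17%, 2.28 to 7.50). The background was 0.991% and 1.16% of the other genes of chromosome 19, and 2.25% and 3.00% of all protein-coding genes. Strand was known for 210 of the 240 genes from the RefSeq promoter table. By it the smoke peaks lay at the start of ZNF573 and ZNF543 and at the far end of ZNF570, ZNF439 and ZNF90. Air peaks lay at the start of ZNF536, ZNF563, ZNF737, ZNF175 and ZNF555, and at the far end of ZNF225, ZNF260 and ZNF529. ZNF665 and ZNF28 had an air peak at an end of unknown strand. All had 1 such peak, with folds from 2.23 at ZNF175 to 6.45 at ZNF570.

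The RefSeq promoter table gives 261 windows for 210 ZNF genes, some with several starts, and the most upstream window began at the end of the gene span for 174 of them. Of these 261 windows only that of ZNF573 had a peak in the 250 bases before the start. ZNF563 had an air peak with its summit 135 bp outside the start side of its span, but its window in the table lies inside the span, away from that peak, so no sequence under it was at hand. The smoke peak of ZNF573 (chromosome 19, 37779142 to 37779655, 514 bp, fold 3.63, −log10 q 1.24) had its summit 2 bp from the start of that gene. ZNF573 lies on the minus strand. Its 250 bases before the start (GRCh38.p14, minus strand, 37779587 to 37779836, from RefSeq) are shown 5′ to 3′, with the 69 bases under the peak in capitals:
ZNF573: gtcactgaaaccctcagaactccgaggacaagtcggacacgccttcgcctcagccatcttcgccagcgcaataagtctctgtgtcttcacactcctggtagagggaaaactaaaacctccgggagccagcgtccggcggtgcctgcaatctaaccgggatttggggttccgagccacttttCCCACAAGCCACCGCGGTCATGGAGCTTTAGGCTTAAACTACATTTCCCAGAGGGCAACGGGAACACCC
The window holds 15 CG pairs and is 56.4% G or C. The only air peak of ZNF573 lay 9609 bp from the smoke peak, within the gene (37769198 to 37769532, fold 4.94).

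The stretch under that peak holds ACTACATTTCCCA, which ends 19 bases before the start. It was picked out from this sequence after it was seen and then searched on both strands of the most upstream window of 250 bases of each gene. It was found in 14 of 210 ZNF promoters of chromosome 19 (6.67%, 4.01 to 10.9), that of ZNF573, its source, among them. Among other promoters of that chromosome 5 of 975 held it (0.513%, 0.219 to 1.19), and 77 of 15812 in all (0.487%). With any base at the seventh letter, ACTACANTTCCCA, which takes in the former, the counts were 20 of 210 (9.52%), 10 of 975 (1.03%) and 157 of 15812 (0.993%). Related copies share sequence by descent, so these promoters are not independent. With a peak in only 1 of the 261 windows, the counts do not bear on where peaks lie. The ZNF promoters had a median of 59.6% G or C against 63.6% for the other genes of the chromosome, and 16.0 CG pairs against 17.0. Those of the 78 ZNF genes with a peak had 58.6% and 14.5, those of the 132 without 60.6% and 16.0, with quartiles that overlapped widely.

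Along the genes no end was preferred by both lists. Of 56 smoke summits inside ZNF genes of known strand, 18 lay in the part of the gene nearest its start when the gene was cut into 3 equal parts, 16 in the middle and 22 in the part holding the far end, where the exons for the zinc fingers usually are. For 58 air summits the counts were 18, 26 and 14. The other genes of chromosome 19 gave 12, 26 and 16 in smoke and 24, 17 and 14 in air.

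The peaks over ZNF genes had folds close to those of each list. In smoke their median fold was 3.76 (quartiles 3.22 and 4.30), equal to that of the list, and 25 of 66 (37.9%) had a q of 0.05 or lower, against 44.4% of the list. In air the median fold was 3.88 (3.48 to 4.16) against 3.93, and 47 of 70 (67.1%) had such a q, against 60.4%. Among all peaks of the clusters these shares were 47.9% in smoke, above the list, and 58.1% in air, below it. No intervals were computed for these shares, so no direction is read from them. Median widths were 226 bp in smoke and 299 bp in air, against 225 and 277 bp in the lists. Since many peaks of both lists are weak, a gene counted here may rest on 1 weak peak: 40 of the 50 smoke genes and 43 of the 56 air genes had a single peak. At a −log10 q of at least 2, 8 genes remained in smoke and 15 in air.

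The co-repressors with which KRAB zinc finger proteins work were covered by a list of 25 genes, with a median length of 43.6 kb. Of these 4 held a smoke peak (16.0%, 6.40 to 34.7) and 10 an air peak (interval 23.4% to 59.3%). All protein-coding genes, weighted to the lengths of the list, gave 30.03% and 31.7%, inside both intervals, and unweighted 24.2% and 25.9%. Peaks of both lists were held by ATF7IP (3 smoke and 2 air), a partner of SETDB1, by ATRX (1 and 1), a chromatin remodeller, and by NAP1L1 (1 and 1), a histone chaperone. TASOR, a subunit of the HUSH silencing complex, held 1 smoke peak alone. In air alone stood PPHLN1, another HUSH subunit, with 4 peaks, the methyltransferase genes SETDB1 (1) and SETDB2 (2), the DNA methyltransferase gene DNMT3A (1), CBX5 (1), which encodes heterochromatin protein 1 alpha, and the deacetylase genes HDAC1 and HDAC2 (1 each). No peak of either list was held by 14 of the 25 genes. Among them were TRIM28, itself on chromosome 19, and DNMT1 and UHRF1 of the same chromosome. The others without a peak were MPHOSPH8, MORC2, CBX1, CBX3, DNMT3B, CHD3, CHD4, SMARCAD1, DAXX, H3-3A and H3-3B. Of 14 urothelial marker genes 3 held a smoke peak and 2 an air peak (21.4% and 14.3%, against 17.6% and 19.1% of all genes at these lengths). Of 7 fibroblast markers 3 and 2 did (42.9% and 28.6%, against 20.04% and 21.4%). All 4 intervals take in the share of all genes, so the peaks gave no check of the labelled cell type. Genes of this paragraph were named after their values were seen.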

How the data were processed

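The data were 2 peak lists in narrowPeak layout, 1 per immunoprecipitated library. Bowtie2 and the peak callers MACS and MACS2 are listed as tools, and hg38 and mm10 as builds, per the submitters' processing notes. Their roles, versions and filters, and how reads matching several copies were treated, were not given in the sources used here. This last point bears on ZNF genes, many of which are related copies, and was not tested. The deposited score was about 10 times the −log10 p; the deposited fold is a ratio over background, and −log10 values of p and q were deposited from the peak caller. They served only to describe or filter peaks within a list.

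Peaks were assigned to genes by overlap of at least 1 bp with the span plus 1 kb, and to clusters by summit (Python 3.11.15, pandas 2.3.3, scipy 1.17.1). For genes with several promoter windows the most upstream was used. Length classes were cut at 10, 20, 40 and 80 kb. Counting was tested on simulated data. Genes and lists were chosen with earlier results of these data known. Named were the 10 genes with most peaks, those with a peak at a gene end (at most 10 per library), those with overlapping peaks, the 5 strongest of each library alone and the first and last gene of each cluster. Alternatives covered the margin, thresholds, list size, naming rule, length rule, cluster gap and overlap.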

Additional observations from a re-analysis of the deposited data

How the results depend on the processing

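The share of ZNF genes with a peak stayed inside its interval under 6 of 8 alternatives in each list. Some of these could not move it. The length rule changed only the other genes, in both lists. Equal list sizes left the smoke list, the shorter one, whole. The share moved with stricter thresholds. With −log10 q held to 2 or more, it was 3.33% in smoke (1.79% of the other genes of chromosome 19, weighted by length) and 6.25% in air (1.49%). At a fold of at least 5 it was 2.08% (0.315%) and 2.50% (0.635%). The share stayed above that of the other genes in every setting run. In smoke at that q, however, its interval (1.70 to 6.44) took in the 1.79% of the other genes. Densities in the clusters moved to 1.63 (smoke) and 1.55 (air) peaks per Mb at that q and to 0.899 and 0.572 at that fold. The air interval at that fold (0.230 to 1.18) took in the 0.453 per Mb of the rest. Without the longest cluster, ZNF737 to ZNF91, the smoke density was 5.87 per Mb (4.42 to 7.64), against 3.82 in the rest, with intervals that just meet. Cluster to rest ratios ran from 1.54 to 5.21 in smoke and from 1.26 to 2.37 in air. Genes with overlapping peaks numbered 4 within 1 kb and 2 at a reciprocal overlap of 50%. Leaving the longest peak-free stretch out of the rest was chosen after the data were examined. No paired analysis was possible because each group is 1 library, nor could a library be left out.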
